A study of Ovis aries with 17 samples.

Results

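B lymphocytes sorted from sheep spleen (B) were compared with plasmacytoid dendritic cell candidates sorted from sheep blood (pDC). Each RNA sample was hybridised to 1 one-colour array of a custom ovine Agilent design. The arrays were chosen by their titles and make up 7 of the 17 arrays of the study. B replicates 1 to 3 and pDC replicates 1 to 3 entered the comparison as 3 pairs, since replicates of the same number lay on the same slide. B replicate 4 lay on another slide and served only as a check. The B cells were those stained by DU-2-104, an antibody to ruminant B cells. The pDC were large cells of low density blood that lacked the B cell marker, CD11b, TCR1, CD8 and CD11c and carried CD45RB, and that gate named no other marker of T cells or natural killer (NK) cells. The subsets came from different organs, so organ and cell type cannot be told apart. Where sorted cells yielded too little RNA, preparations from several animals were combined. The labels do not say for which arrays this was done. P-values here measure the spread between these arrays, which may in part be technical.

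B cells carry an antigen receptor on their surface whose signal is amplified by a co-receptor that binds complement-coated antigen, and they can become antibody-secreting cells. pDC are dendritic cells that sense nucleic acids in endosomes and secrete type I interferon in large amounts. FLT3 signalling and the transcription factors TCF4 and IRF8 are needed for the development of pDC in mice and humans.

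Each value is the log2 signal of a probe after subtraction of the 75th percentile of its array, so that 0 is a signal equal to that percentile and 1 unit is a 2-fold difference. The percentile ranged from 255 to 624 in signal units over the 7 arrays, and 68.3% to 77.5% of the spots were well above background. Across genes, Pearson's r was 0.907 to 0.964 between B arrays, 0.934 to 0.958 between pDC arrays and 0.851 to 0.922 between a B and a pDC array. Most probes of this array carry only the name of an expressed sequence. After the filter on dim probes 10212 genes were tested, of which 216 had a symbol, out of 424 genes with a symbol on the array. The other 208 missed the filter, and 38 of the 216 passed it through 1 subset only. Differences are B minus pDC with their standard error (SE) from limma, fitted with the slide as a block. A gene was called when its Benjamini-Hochberg adjusted p over the 10212 genes was under 0.05 and the difference was at least 1 on the log2 scale.

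Of the 10212 genes, 513 were called higher in B (5.02%) and 535 higher in pDC (5.24%), together 10.3%, and the median difference over all genes was 0.05. Among the 216 genes with a symbol, 18 were called higher in B (8.33%) and 21 higher in pDC (9.72%). Of the 18, 6 were above background on at most 2 pDC arrays, and of the 21, 6 on at most 2 B arrays. These passed the filter only through the subset where they were higher. All 39 called genes with a symbol had the same sign on each of the 3 slides. The other 1009 called genes had no symbol and are not described. By the lowest value of one subset against the highest of the other, 17 of the 18 genes higher in B did not overlap. This held for 20 of the 21 higher in pDC and for 29.9% of all genes tested. The calls were made on these same arrays, so the equal signs and the lack of overlap are no separate check. The plot of called genes by array shows the values, and the plot of differences sets the called genes among all genes tested.

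**Figure D1:**
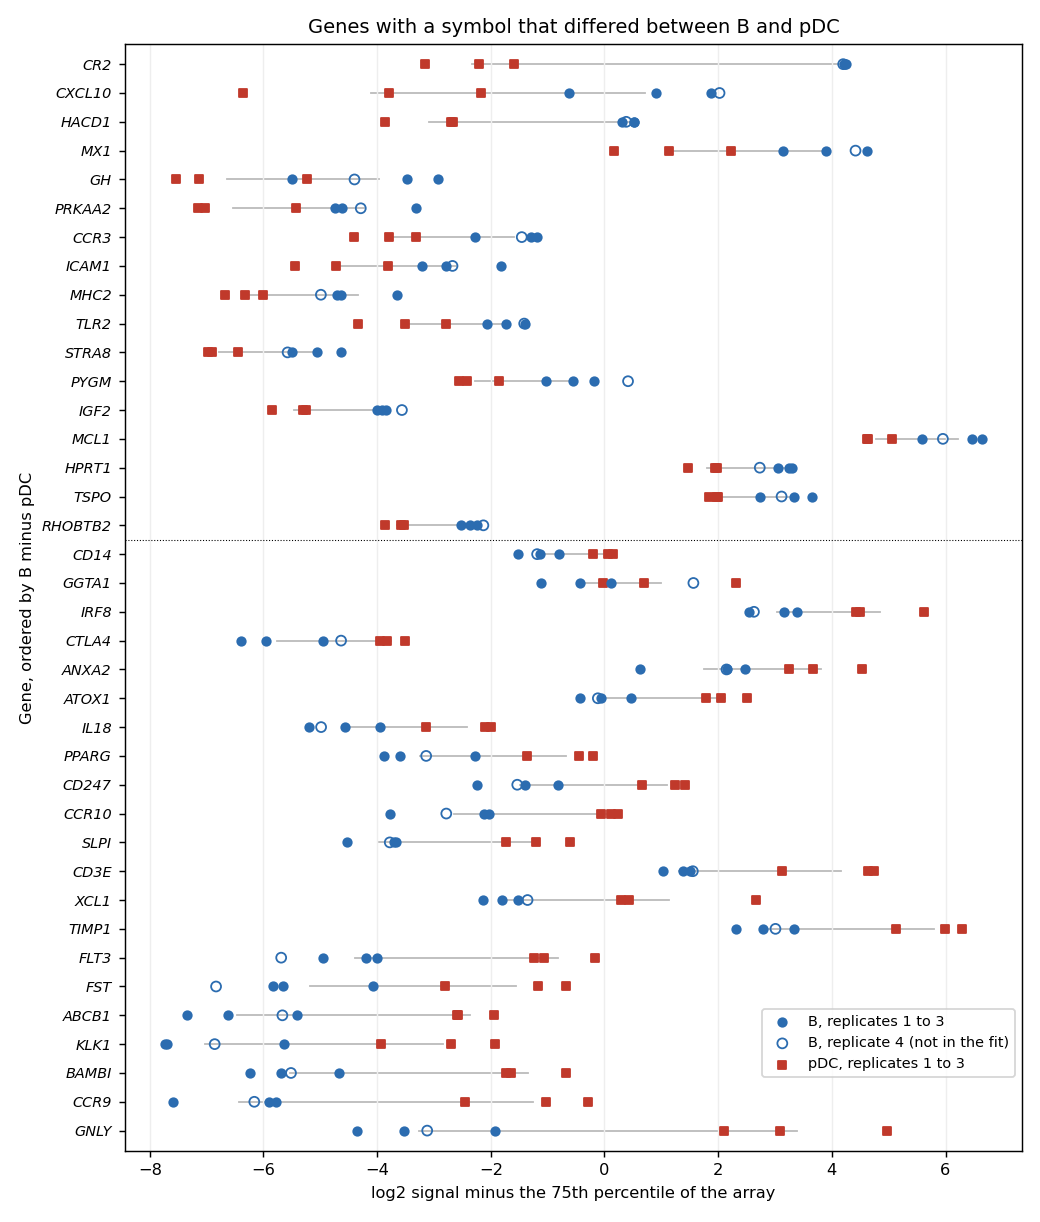
Level on each array of 38 of the called genes with a symbol, in log2 units relative to the 75th percentile of the array. Filled circles are B replicates 1 to 3, open circles B replicate 4, squares pDC replicates 1 to 3, and the grey line joins the means of the 3 B and the 3 pDC arrays. Genes above the dotted line were higher in B (17 drawn) and those below it higher in pDC (21), and only GH and GGTA1 have overlapping subsets.

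**Figure D2:**
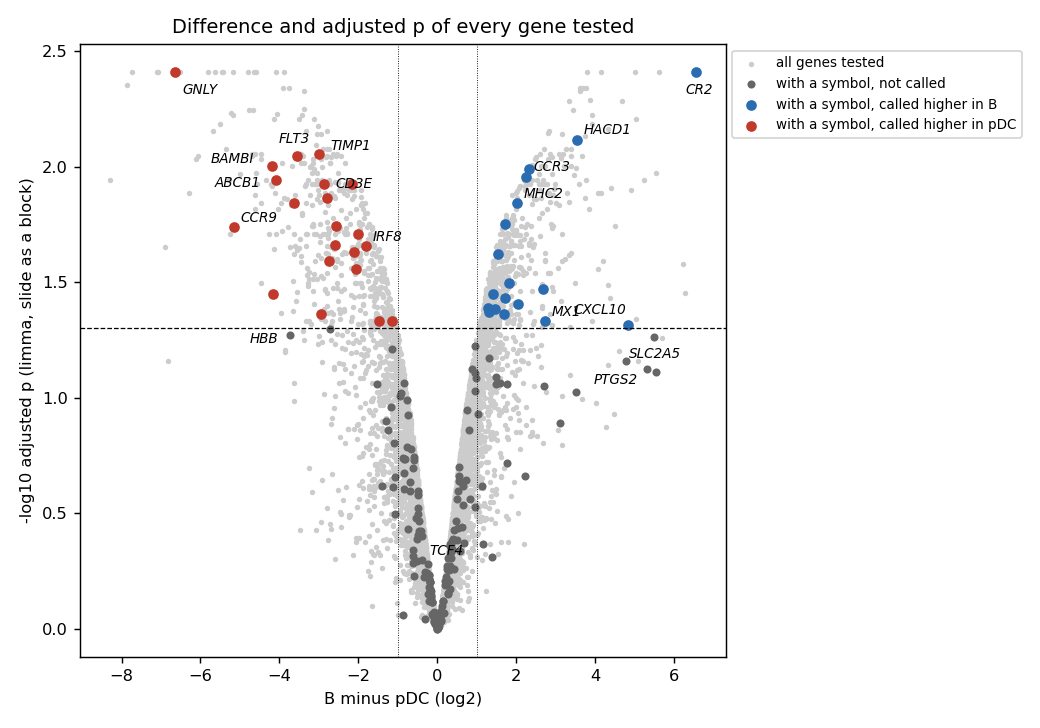
Difference of every gene tested, in log2 units on the horizontal axis, against the -log10 of its limma adjusted p. The dashed line marks an adjusted p of 0.05 and the dotted lines a difference of 1 in either direction. CR2 lies farthest to the right, at 6.56, and GNLY farthest to the left among the genes with a symbol, at -6.65, and TCF4 lies near 0.

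The gene that stood highest in B over pDC among all 10212 was CR2, complement receptor 2, which binds C3d on antigen as part of the B cell co-receptor. CR2 was 4.22, 4.23 and 4.25 on B replicates 1 to 3, 4.20 on B replicate 4, and -3.16, -1.60 and -2.21 on the pDC arrays. The B arrays hardly differed and no pDC array came near them. The difference was 6.56 ± 0.36 (SE), a 94.1-fold higher signal (limma adjusted p = 0.0039). CR2 was above background on all 3 pDC arrays too. Of the 34 genes listed for the B cell receptor, its co-receptor and its signalling, 2 had a symbol and only CR2 was tested. No gene of the lists of B cell transcription factors (20 genes) or of immunoglobulins (16 genes) had a symbol, so CR2 is the only B cell marker measured here. As the subsets are bulk samples, fewer cells of a type and less RNA per cell cannot be told apart in any of these levels.

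Among the genes with a symbol the widest difference the other way was that of GNLY, which encodes granulysin, a protein of the cytotoxic granules of T and NK cells. It was -3.52, -1.92 and -4.36 on B replicates 1 to 3 and 2.11, 4.97 and 3.08 on pDC replicates 1 to 3. B replicate 4 was at -3.12. All pDC arrays were above all B arrays, and the difference of -6.65 ± 0.40 (SE) is a 101-fold lower signal in B (limma adjusted p = 0.0039). The probes that measured the marker genes are given below because each gene rests on 1 or 2 sequences of 60 bases. The whole probe is printed where at least 2 of its 3 forward reading frames are free of stop codons, which holds for 33.9% of the gene probes of the array, and the first 30 bases otherwise. Letters run 5′ to 3′ in lower case and no base is singled out.
CR2, first 30 bases: ggcgtcaagttgcaattctgaagctttcac
GNLY, first 30 bases: tatctgtgtggacatcaaggtctgcaaaag
CD3E, first 30 bases: gatggtcatttgtagctccatgaatgtgct
FLT3, whole probe: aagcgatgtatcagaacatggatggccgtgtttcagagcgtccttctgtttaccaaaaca
IRF8, probe 1, first 30 bases: ccttttgggcccttgttgccggtagcttaa
IRF8, probe 2, whole probe: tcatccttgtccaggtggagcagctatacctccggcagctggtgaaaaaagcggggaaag

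Of the 29 genes listed for pDC identity, 6 had a symbol and 4 were tested, with 2 called higher in pDC (against 5.24% of all genes tested), none higher in B and a median difference of -1.22 against 0.05 over all genes. FLT3, the receptor of the growth factor that drives dendritic cell development, was -4.95, -4.0 and -4.20 on B and -1.06, -1.24 and -0.16 on pDC. The 4 B arrays, with replicate 4 at -5.69, all lay below the 3 pDC arrays. The difference was -3.56 ± 0.33 (SE), 11.8-fold (limma adjusted p = 0.00897), and was -3.89, -2.76 and -4.03 within slides 1, 2 and 3. The mean of FLT3 was -1.20 on the macrophages of the study and 1.35 on its XCR1-negative dendritic cells. A level above B was thus not particular to pDC.

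IRF8, a transcription factor needed by dendritic cell precursors and also used by B cells, was lower in B by both of its probes, whose sequences above share no run longer than 6 bases. Probe 1 was 2.54, 3.16 and 3.38 on B and 4.42, 4.50 and 5.62 on pDC, a difference of -1.82 ± 0.28 (SE, limma adjusted p = 0.0221). Probe 2 differed by -2.17 ± 0.38 (SE, limma adjusted p = 0.0301 over all probes). All B arrays were below all pDC arrays by either probe. TCF4, the transcription factor that sets pDC identity in humans and mice, did not pass. It was 1.09, 0.75 and 0.55 on B and 1.07, 0.71 and 1.78 on pDC, a difference of -0.39 ± 0.34 (SE, limma adjusted p = 0.504), and the subsets overlapped. UNC93B1, which carries endosomal Toll-like receptors to their compartment, differed by -0.62 ± 0.52 (SE, limma adjusted p = 0.483). TLR9, one of these receptors, missed the filter, being above background on 1 of 3 B and 2 of 3 pDC arrays. The 6 genes of the pDC signature of the study, which it chose in part on these samples, had no symbol here.

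Of 54 genes listed for T and NK cells, 12 had a symbol and 6 were tested, of which 4 (GNLY, CD3E, CD247 and CTLA4) were called higher in pDC, where 5.24% of all genes tested were, and none higher in B, with a median difference of -2.30. Only CTLA4 of the 6 passed the filter through 1 subset alone. CD3E, the epsilon chain of the CD3 complex of the T cell receptor, was 1.5, 1.03 and 1.38 on B and 4.64, 3.12 and 4.74 on pDC. The pDC arrays lay above all B arrays, with pDC replicate 2 the lowest of them, and the difference was -2.86 ± 0.33 (SE), 7.27-fold (limma adjusted p = 0.0119).

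CD247, the zeta chain of the same complex and also of NK receptors, was -0.82, -1.39 and -2.25 on B and 1.25, 0.66 and 1.41 on pDC, a difference of -2.59 ± 0.39 (SE, limma adjusted p = 0.0219). CTLA4, an inhibitory receptor of T cells, was above background on 1 of 3 B and on all pDC arrays and differed by -2.0 ± 0.29 (SE, limma adjusted p = 0.0196), a call lost at -0.37 with normexp, another background correction that draws dim signals together. CD3D, the delta chain of CD3, did not pass. It was 1.93, 2.37 and 2.72 on B and 3.70, 2.94 and 3.02 on pDC, a difference of -0.88 ± 0.36 (SE, limma adjusted p = 0.182), although the subsets did not overlap. IL2RA, a chain of the interleukin-2 receptor, differed by -0.85 ± 0.38 (SE, limma adjusted p = 0.211).

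Outside that list, XCL1, a chemokine made by activated NK and CD8 T cells that attracts XCR1-positive dendritic cells, was -1.51, -2.13 and -1.80 on B and 0.29, 2.66 and 0.43 on pDC. Its difference was -2.95 ± 0.61 (SE, limma adjusted p = 0.0436). GNLY and XCL1 were both highest on pDC replicate 2, where CD3E was lowest among the pDC arrays. IFNG, the cytokine interferon gamma, missed the filter and was above background on 2 of 3 pDC and no B array. CD28, the co-stimulatory receptor of T cells, was above background on 1 pDC array and no B array. Summed over the 12 genes with a symbol on the linear scale, the level was 7.44 to 9.76 times the 75th percentile on the 3 fitted B arrays and 45.1 to 49.8 times on the pDC arrays. On the pDC arrays GNLY, CD3E and CD3D made up most of this sum. The largest part was GNLY on pDC replicate 2 and CD3E on the other pDC arrays. Of these 12 genes 3, CD40LG, IL2 and IL4, were above background on no array, and 6 were above it on all pDC arrays. The part of T and NK cells in the differences of the other genes was not tested.

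**Figure D3:**
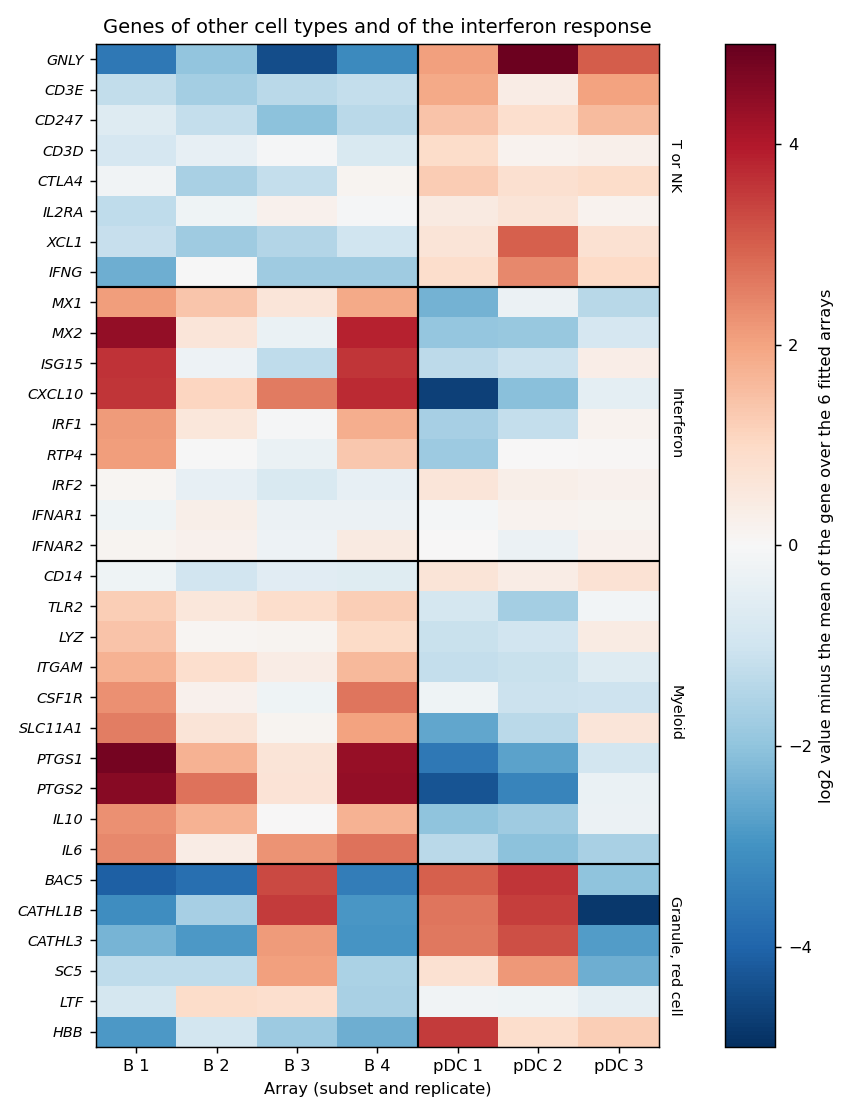
Genes of T or NK cells, of the interferon response, of myeloid cells and of granules and red cells on the 7 arrays. Colours give the log2 value minus the mean of the gene over the 6 fitted arrays, from blue (lower) to red (higher), with values beyond 5 in either direction drawn as 5. GNLY, CD3E, CD247, CD3D, CTLA4 and XCL1 are higher on all pDC arrays than on B replicates 1 to 3, MX2 and ISG15 are highest on B replicates 1 and 4, and BAC5, CATHL1B and CATHL3 are high on B replicate 3 and pDC replicates 1 and 2.

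Of 58 genes for chemokines, adhesion and homing, 10 had a symbol and 8 were tested, with 2 called higher in each subset, against 5.02% in B and 5.24% in pDC over all genes tested, and a median difference of -0.18. The chemokines CCL25 and CXCL1 lay near 0, at 0.23 ± 0.28 and 0.19 ± 0.24 (SE). CCR9, the receptor for CCL25 that directs lymphocytes and pDC to the gut, was -5.78, -5.90 and -7.59 on B and -1.03, -2.46 and -0.30 on pDC. It was above background on 1 of the 3 B arrays and on all pDC arrays, and differed by -5.16 ± 0.72 (SE, limma adjusted p = 0.0183). CCR10, a receptor of skin-homing lymphocytes and of IgA plasma cells, was -2.03, -2.12 and -3.78 on B and -0.06, 0.12 and 0.24 on pDC. The pDC arrays were alike and all above B, with a difference of -2.74 ± 0.45 (SE), 6.70-fold (limma adjusted p = 0.0257).

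CCR3, the receptor for eotaxins, went the other way. It was -1.30, -1.18 and -2.28 on B and -3.79, -3.31 and -4.40 on pDC, and the 3 differences within slides, 2.49, 2.13 and 2.13, were close to each other. The fitted difference was 2.25 ± 0.24 (SE), 4.76-fold (limma adjusted p = 0.0111), and 1.09 with normexp, where it was still called. ICAM1, the ligand of the integrin LFA-1, was -2.78, -3.21 and -1.82 on B and -3.80, -5.44 and -4.72 on pDC, a difference of 2.05 ± 0.40 (SE, limma adjusted p = 0.0394). This call was lost with normexp, at 0.78, and with the values as normalized by the authors, at 1.32. The chains of LFA-1 itself did not pass, with differences of -0.91 ± 0.27 (SE) for ITGAL and -0.54 ± 0.33 (SE) for ITGB2 (limma adjusted p = 0.0953 and 0.33).

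Members of the TGF-beta family and its regulators were measured by 24 symbols of 35 listed, of which 10 were tested and 1, FST, was called, near the 10.3% called over all genes tested. FST, follistatin, which binds and neutralises activin, was -4.08, -5.83 and -5.65 on B and -1.16, -2.80 and -0.69 on pDC, a difference of -3.63 ± 0.46 (SE, limma adjusted p = 0.0144). It was above background on 1 of 3 B arrays, and 5 of the 10 genes tested passed the filter through 1 subset only. BAMBI, a pseudoreceptor that dampens TGF-beta signalling and was not in the list, was higher in pDC by both of its probes. The sequences of these probes share no run longer than 4 bases.
BAMBI, probe 1, first 30 bases: gagctagaattgagtacctaaataaacaaa
BAMBI, probe 2, whole probe: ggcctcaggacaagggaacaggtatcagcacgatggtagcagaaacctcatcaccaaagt

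Probe 1 of BAMBI was -6.24, -5.70 and -4.68 on B and -1.72, -0.68 and -1.64 on pDC, a difference of -4.19 ± 0.43 (SE, limma adjusted p = 0.00998), with 1 of 3 B arrays above background. Probe 2 was -8.16, -6.51 and -7.50 on B, where no array was well above background, and -2.87, -2.20 and -2.89 on pDC. The signal of probe 2 was therefore at least 8.13-fold higher in pDC (limma adjusted p = 0.00363 over all probes). The receptors and signal transducers of the list that were tested did not pass, among them ACVR1 at -0.66 ± 0.26, ACVR2B at -1.08 ± 0.49, SMAD4 at -0.22 ± 0.23 and SMAD5 at 0.52 ± 0.26 (B minus pDC, log2, ± SE). Receptors such as ACVR1B, ACVR2A, BMPR1A and BMPR2 missed the filter. ACVRL1, another receptor of the family, which was not in the list, was -0.20, -2.78 and -4.21 on B and -6.09, -7.14 and -4.52 on pDC, where 1 of 3 arrays was above background. The subsets of ACVRL1 did not overlap, and its difference of 3.52 ± 1.03 (SE, limma adjusted p = 0.0948) passed in 5 of 13 alternatives.

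ABCB1, the efflux pump P-glycoprotein, was -5.41, -6.63 and -7.35 on B and -2.57, -1.95 and -2.60 on pDC, and was the only called gene among 5 tested of 22 membrane transporters (10.3% over all genes tested). Its difference was -4.09 ± 0.44 (SE, limma adjusted p = 0.0114), with 1 of 3 B arrays above background. The size rested on the background step, and was -0.96 with normexp, where the call was lost, and -1.92 with the deposited normalized values. TIMP1, an inhibitor of matrix metalloproteinases, was 3.34, 2.78 and 2.31 on B and 5.99, 6.28 and 5.13 on pDC, well above background everywhere. Its difference of -2.99 ± 0.28 (SE), 7.95-fold (limma adjusted p = 0.00883), lay between -2.65 and -3.50 within each slide.

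SLPI, a secreted inhibitor of neutrophil proteases, differed by -2.79 ± 0.35 (SE, limma adjusted p = 0.0137) and its B and pDC arrays did not overlap. PPARG, a nuclear receptor of lipid metabolism, was -2.27, -3.59 and -3.87 on B and -0.46, -0.20 and -1.37 on pDC, a difference of -2.57 ± 0.36 (SE, limma adjusted p = 0.0182). KLK1, tissue kallikrein, differed by -4.17 ± 0.79 (SE, limma adjusted p = 0.0355) and was above background on 1 of 3 B arrays. With normexp it was at -0.93 and the call was lost. The cytokine IL18 differed by -2.16 ± 0.25 (SE, limma adjusted p = 0.0119) and was the only called gene among 8 tested of 51 cytokines and their receptors, near the 10.3% over all genes, but with normexp it was at -0.78 and the call was lost. ATOX1, a copper chaperone, and ANXA2, a calcium-dependent membrane-binding protein, differed by -2.12 ± 0.33 and -2.07 ± 0.35 (SE, limma adjusted p = 0.0234 and 0.0278). GGTA1, the enzyme that makes the alpha-gal sugar, differed by -1.47 ± 0.31 (SE, limma adjusted p = 0.0466), but B replicate 3 at 0.12 lay above pDC replicate 1 at -0.02, and B replicate 4 at 1.56 lay within the pDC range. GGTA1 was called in 5 of 14 alternatives, with limma adjusted p up to 0.45.

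Of 53 interferon and antiviral genes, 9 had a symbol and all 9 were tested, with 2 (MX1 and CXCL10) called higher in B, against 5.02% of all genes tested, none higher in pDC and a median difference of 1.39. MX1, an interferon-induced GTPase that blocks viruses, was 4.62, 3.90 and 3.14 on B and 0.16, 2.22 and 1.14 on pDC, a difference of 2.71 ± 0.58 (SE, limma adjusted p = 0.0466). CXCL10, an interferon-induced chemokine that attracts activated T cells, was 1.88, -0.63 and 0.91 on B and -6.35, -3.79 and -2.18 on pDC. It was above background on 2 of 3 pDC arrays and differed by 4.83 ± 1.06 (SE, limma adjusted p = 0.0485), with 8.23 within slide 1 and 3.16 and 3.09 within slides 2 and 3. Both calls lay close to the threshold, and were kept in 10 of 14 alternatives for MX1 and in 9 of 13 for CXCL10, with limma adjusted p up to 0.107 and 0.108.

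MX2, a relative of MX1, did not pass and was 3.80, 0.02 and -0.93 on B replicates 1 to 3 and -2.52, -2.50 and -1.43 on pDC, a difference of 3.11 ± 1.06 (SE, limma adjusted p = 0.129). ISG15, a ubiquitin-like protein induced by interferon, was 3.5, -0.35 and -1.40 on B and -1.43, -1.20 and 0.21 on pDC, and the subsets overlapped. B replicate 4 was close to B replicate 1 for both, at 3.25 for MX2 and 3.46 for ISG15. The transcription factor IRF1 was 0.36, -1.20 and -1.85 on B and -3.42, -2.97 and -1.60 on pDC (difference 1.77 ± 0.74, SE, limma adjusted p = 0.192). The chains of the type I interferon receptor, IFNAR1 and IFNAR2, lay at differences of -0.13 ± 0.25 and 0.05 ± 0.29 (SE), and the repressor IRF2 at -0.74 ± 0.24 (SE, limma adjusted p = 0.119).

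Of 50 genes listed for monocytes, macrophages and conventional dendritic cells, 17 had a symbol and 11 were tested, with 1 called in each direction, against 10.3% called in either direction over all genes tested. TLR2, a receptor for bacterial lipoproteins, was -1.39, -2.06 and -1.74 on B and -3.51, -4.34 and -2.78 on pDC, a difference of 1.82 ± 0.33 (SE), 3.52-fold (limma adjusted p = 0.0318), and 0.86 with normexp, where the call was lost. CD14, the co-receptor for bacterial lipopolysaccharide, was -0.80, -1.52 and -1.14 on B and 0.06, -0.20 and 0.15 on pDC. Its difference of -1.15 ± 0.25 (SE, limma adjusted p = 0.0464) was past the threshold in 5 of 14 alternatives. The other CD14 probe, at -0.90 ± 0.28 (SE, limma adjusted p = 0.106 over all probes), did not pass. Both subsets were below the macrophages of the study, whose mean for the first CD14 probe was 6.12.

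The macrophage genes CSF1R and ITGAM missed the filter and were above background on no pDC array, and on 1 and 2 of the 3 B arrays. PTGS2 of this list and PTGS1, the cyclooxygenases that start prostaglandin synthesis, did not pass. PTGS1 was 4.38, 1.34 and 0.22 on B and -3.96, -3.08 and -1.33 on pDC, a difference of 4.77 ± 1.21 (SE, limma adjusted p = 0.0691). PTGS2 was 2.23, 0.40 and -1.65 on B and -6.66, -5.66 and -2.67 on pDC, where 1 of 3 arrays was above background, a difference of 5.32 ± 1.41 (SE, limma adjusted p = 0.0754). Both genes were called when the slide was not a block. Its probe was spotted under a second name with the same 60 bases, which gave a difference of 5.53 ± 1.48 (SE). SLC11A1, a metal transporter of phagosomes, was 2.20, 0.29 and -0.22 on B and -2.94, -1.70 and 0.24 on pDC, and the subsets overlapped. IL10, an anti-inflammatory cytokine, differed by 2.71 ± 0.78 (SE, limma adjusted p = 0.0893). On B replicate 4, PTGS1, PTGS2 and SLC11A1 were at 3.94, 2.04 and 1.67, next to B replicate 1.

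The summed level of the 17 myeloid genes was 16.6 on B replicate 1, 5.73 on replicate 2, 5.22 on replicate 3 and 12.7 on replicate 4, in units of the 75th percentile signal, and 3.51 to 6.67 on the pDC arrays. On B replicates 1 and 4 most of this sum came from PTGS2, SLC11A1 and LYZ. MX1, CXCL10, MX2 and ISG15 were all highest on the same B replicates 1 and 4, with MX1 at 4.42 and CXCL10 at 2.02 on replicate 4, and the part of the myeloid genes in their levels was not tested. XCR1 and BATF3, markers of the conventional dendritic cell type cDC1, differed by 0.96 ± 0.23 and 0.64 ± 0.35 (SE, limma adjusted p = 0.0596 and 0.291), and CADM1 by -1.52 ± 0.43 (SE, limma adjusted p = 0.0875). CLEC9A and SIRPA were above background on none of the 6 arrays.

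Granule genes of neutrophils varied between arrays rather than between subsets. CATHL1B, a cathelicidin, which is an antimicrobial peptide of neutrophil granules, was -5.89, -4.44 and 0.72 on B and -0.11, 0.69 and -7.58 on pDC. B replicate 3 and pDC replicates 1 and 2 were thus high, and the difference was -0.87 ± 2.79 (SE, limma adjusted p = 0.866). The cathelicidin SC5 was highest on the same 3 arrays, at -0.68 on B replicate 3 and at -2.0 and -0.58 on pDC replicates 1 and 2, and so were BAC5 and CATHL3, which missed the filter. LTF, lactoferrin of neutrophil granules, was -5.21, -3.42 and -3.48 on B and -4.49, -4.53 and -4.80 on pDC. HBB, the beta chain of haemoglobin, was -6.57, -4.63 and -5.50 on B, above background on 1 of 3 arrays, and -0.21, -2.82 and -2.45 on pDC. Its difference of -3.74 ± 0.85 (SE) just missed the threshold (limma adjusted p = 0.0538) and was past it when the slide was not a block.

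HACD1, an enzyme of the elongation of very long chain fatty acids, was next to CR2 by adjusted p among the genes with a symbol higher in B. It was 0.31, 0.53 and 0.51 on B replicates 1 to 3, 0.38 on replicate 4, and -3.86, -2.71 and -2.67 on pDC. The B arrays were again alike, and the difference was 3.53 ± 0.30 (SE), 11.5-fold (limma adjusted p = 0.00765). A probe that the design names only MHC2, which was not in the list of antigen presentation genes, was -4.70, -4.63 and -3.65 on B and not well above background on any pDC array. Its processed signal in B was at least 2.04-fold higher (limma adjusted p = 0.0144). With normexp the log2 difference of MHC2 was 0.32 and with the deposited normalized values it was 1.03, and neither passed. The T cell co-stimulator CD86 and the MHC class I light chain, B2MG in the design, differed by 0.01 ± 0.25 and -0.20 ± 0.24 (SE), and none of the 3 tested of 31 listed genes of antigen presentation passed.

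Of 25 apoptosis genes, 6 were tested and 1 was called (10.3% over all genes tested), with a median difference of 0.15. MCL1, a survival factor of the BCL2 family, was 6.64, 6.46 and 5.58 on B and 4.63, 5.06 and 4.62 on pDC, a difference of 1.46 ± 0.29 (SE), 2.74-fold (limma adjusted p = 0.0412). BCL2 itself differed by 0.24 ± 0.23 (SE). None of the 4 tested genes of the cell cycle passed. Among them PCNA, the clamp of the DNA polymerases, was 3.02, 3.43 and 4.82 on B and 3.57, 4.17 and 3.68 on pDC, and KI67, the proliferation marker, was -2.49, -2.20 and -0.43 on B and -1.30, -0.74 and -1.23 on pDC. B replicate 3 was the highest B array for both.

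In metabolism, 12 of 56 listed genes were tested, with 1 called in each direction, PRKAA2 and PPARG, against 10.3% in either direction over all genes. PRKAA2, a catalytic subunit of the energy sensor AMPK, was above background on all B and no pDC array and at least 2.18-fold higher in B on the scanner's processed signal (limma adjusted p = 0.0103). With normexp the log2 difference of PRKAA2 was 0.36 and with the deposited normalized values it was 0.98, and the call was lost in both. The called genes PYGM, HPRT1, TSPO and RHOBTB2 were not in this list. PYGM, the muscle form of glycogen phosphorylase, was -0.55, -0.18 and -1.03 on B and -2.55, -2.41 and -1.86 on pDC, higher in B by 1.69 ± 0.35 (SE, limma adjusted p = 0.0436). HPRT1, a purine salvage enzyme often used as a reference gene, was 3.05, 3.25 and 3.30 on B and 1.99, 1.94 and 1.48 on pDC, 2.64-fold higher in B (limma adjusted p = 0.0357). TSPO, a protein of the outer mitochondrial membrane, and RHOBTB2 were higher in B by 1.30 ± 0.26 and 1.27 ± 0.25 (SE, limma adjusted p = 0.0426 and 0.041).

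Dim probes of genes known from other tissues made up the rest of the calls. IGF2, a growth factor, was -3.91, -3.85 and -4.01 on B and -5.25, -5.31 and -5.85 on pDC, with 1 of 3 pDC arrays above background and a difference of 1.55 ± 0.25 (SE, limma adjusted p = 0.024). A second IGF2 probe that shares 58 of its 60 bases gave 0.94 ± 0.30 (SE, limma adjusted p = 0.111 over all probes). GH, growth hormone, was above background on 1 of 3 pDC arrays and differed by 2.67 ± 0.50 (SE, limma adjusted p = 0.0337), but B replicate 1 at -5.49 lay below pDC replicate 2 at -5.24. STRA8, a gene of meiosis, was at least 1.22-fold higher in B (limma adjusted p = 0.0369) and not well above background on pDC, and without replicate 2 no fold can be given for it. SLC2A5, a fructose transporter, was -4.81, -2.06 and 1.80 on B replicates 1 to 3 and not well above background on pDC, at least 12.7-fold higher in B. This bound was 42.3-fold without replicate 1 and 3.76-fold without replicate 3, and B replicate 4 was at -5.14. SLC2A5 did not pass (limma adjusted p = 0.0544).

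B replicate 4 gave a check on an array outside the comparison, with its slide differing from that of every pDC array. Of the 513 genes called higher in B, 497 (96.9%) lay above all 3 pDC arrays on B replicate 4. Of the 535 genes called higher in pDC, 506 (94.6%) lay below them. Over all genes tested, 54.5% lay beyond the pDC range on the side of their difference. Among genes with a symbol this held for 18 of 18 higher in B and 20 of 21 higher in pDC, with GGTA1 the exception.

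**Figure D4:**
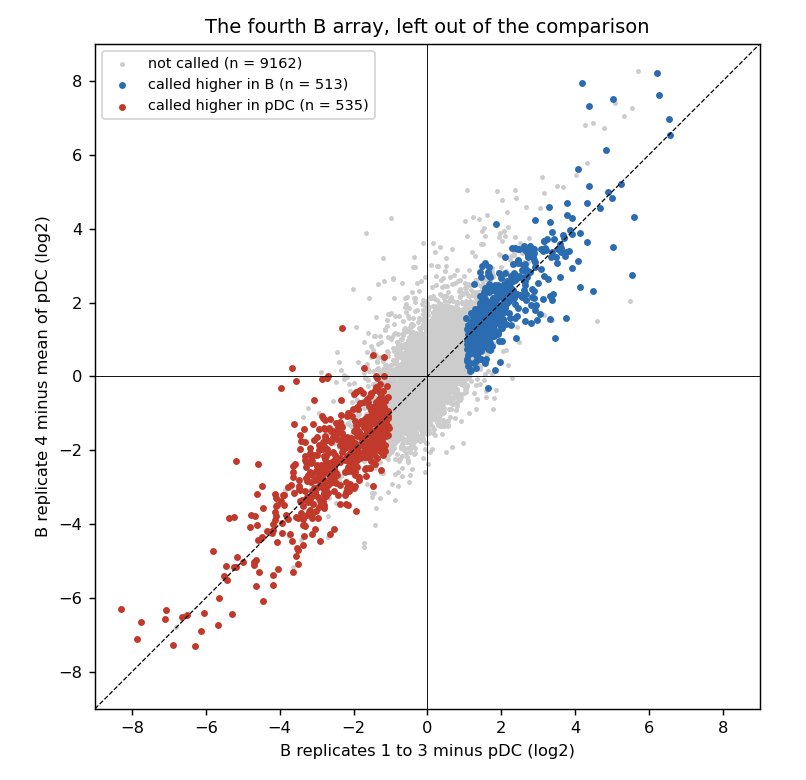
Difference of B replicates 1 to 3 from pDC (horizontal, log2) against that of B replicate 4 from the mean of the 3 pDC arrays (vertical, log2), for the genes with a value on B replicate 4. Coloured points are the 513 genes called higher in B and the 535 called higher in pDC, grey points were not called, and the dashed line marks equal differences. Both axes share the pDC arrays, so the spread along the line is not independent.

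The number of calls fell when a pair of arrays was left out. In each such fit 2 arrays per subset and 1 residual degree of freedom remained, and the number of genes called went from 1048 to 811 without replicate 1, 179 without replicate 2 and 318 without replicate 3. Of the 39 genes with a symbol, 8 kept their call without replicate 2. These were CR2 and HACD1, higher in B, and GNLY, CD3E, FLT3, TIMP1, BAMBI and CCR9, higher in pDC. Without replicate 3, 16 kept it, and CD3E was the one of these 8 that did not (limma adjusted p up to 0.0547 over the alternatives). Without replicate 1, 33 kept it. The differences themselves moved less. For the 38 genes drawn they were 0.65 to 1.29 times the size given above without replicate 1, 0.69 to 1.21 times without replicate 2 and 0.74 to 1.25 times without replicate 3. CXCL10 was the one that shrank by over 1.5 times, to 3.12 without replicate 1.

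The step that moved the sizes most was the background correction. Normexp was run with an offset of 50 signal units added, which by itself makes differences of dim genes smaller. The part of the offset was not tested apart from that of the correction. With normexp in place of the scanner's own subtraction, the differences of these 38 genes were 0.13 to 1.0 times as large. Of these genes 20 shrank by over 1.5 times and 13 lost their call. Besides those given above and CD14, the lost calls were the dim genes GH, IGF2, RHOBTB2 and STRA8, at 0.48, 0.28, 0.54 and 0.23. CCR9, BAMBI, FST and FLT3 kept their calls at -1.80, -1.69, -1.35 and -1.76, and SLPI, PPARG and CXCL10 at -1.44, -1.44 and 2.82. CR2, GNLY, CD3E and TIMP1 stayed at 5.57, -5.38, -2.81 and -2.98.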

How the data were processed

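RNA from the sorted cells was amplified with a one-colour low-input Agilent kit and hybridised to a custom ovine array. As deposited by the authors, the scanner files hold intensities per spot that Agilent Feature Extraction (10.7.3.1 for slides 1 to 3, 10.10.1.1 for the slide of B replicate 4) background-subtracted, with flags for spots well above background and for outliers. The deposited series table holds log2 values normalized by the authors and served as an alternative.

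From the processed signal, log2 values were shifted by the 75th percentile of each array over gene spots. Outlier spots were left out, which removed 111 probes, and spots of a probe were averaged. Probes entered the fit if, in B or in pDC, each of the 3 arrays had over 50% of their spots flagged as well above background (10402 probes), and the probe with the highest sum stood for a gene. Symbols came from the design or, through its accession, from RefSeq. The 6 arrays were fitted with limma 3.58.1 in R 4.3.3 with the replicate number, which is the slide, as a block, with Benjamini-Hochberg adjustment over 10212 genes. Deviations from the subset means correlated at 0.220, 0.238 and 0.346 between arrays of the same number and at -0.255 to 0.0255 otherwise. Summed levels add the linear values of a list. A fold given as at least takes, for a subset not well above background, the lowest signal well above background on each array. The text names the called genes with a symbol, of which 1 is not reported here, and, for lists, members chosen for their role. Members and lists were chosen with earlier results of these data known. The fit was tested on simulated data. The alternatives were other blocks and samples, background corrections, normalizations, filters and probes, and leaving out each pair. The number of arrays limits the precision.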

Additional observations from a re-analysis of the deposited data

Results flagged for a closer look

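Among the 4 B arrays, 75 genes were examined for a single array far from the other 3 by Dixon's test, which flags about 1 in 20 groups by chance. It flagged 4 genes, which is near that chance rate. All values are log2 relative to the 75th percentile of the array. CXCL1, a chemokine for neutrophils, was 8.29 on B replicate 1 and 7.45 to 7.56 on the others. IFNAR1 was 5.11 on B replicate 2 and 4.51 to 4.60 on the others. SC5, a cathelicidin, was -0.68 on B replicate 3 and -4.31 to -4.02 on the others. SLPI was -4.53 on B replicate 2 and -3.78 to -3.68 on the others.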

How the results depend on the processing

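Against 1048 genes called (513 higher in B, 535 in pDC), the fit with no replicate block called 799, and the other alternatives that kept the filter and all pairs called 848 to 1434. With probes above background on all 6 arrays 834 were called, 27 of them with a symbol and all 27 among the 39. The pairing changed the call of ANXA2, CD14, GGTA1, GH, ICAM1, MCL1 and PRKAA2, lost with no replicate block, and of HBB, HSD11B1, PTGS1 and PTGS2, gained. Without the filter 306 genes were called (111 and 195), 18 of them with a symbol and 15 of those among the 39. Without a pair, 179 to 811 genes were called (57 to 334 higher in B, 122 to 477 in pDC), 8 to 41 with a symbol and 8 to 33 of the 39, with the lowest values without replicate 2. Genes without overlap fell from 3055 to 1050 when a gap of 1.5-fold was asked. CR2, FLT3, GNLY, HACD1 and TIMP1 were called in all 14 alternatives, and BAMBI and CCR9 in all 13 that tested them. The alternative that did not test BAMBI and CCR9 asked for probes above background on all 6 arrays, so their calls were lost there. Leaving out a pair leaves 1 residual degree of freedom, and the fit without the filter tests more genes.

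Among the genes named, signs turned only where a gene was not called. With quantile normalization B2MG was at 0.0353, IFNAR1 at 0.17 and PCNA at 0.12. With the series table IFNAR1 was at 0.20, IFNAR2 at -0.000666 and PCNA at 0.17. With B replicate 4 added CD86 was at -0.11. With 1 pair left out the values ran from -5.46 to 1.58 for CATHL1B, -2.74 to 1.23 for SC5, -0.38 to 2.89 for ISG15, -0.64 to 0.30 for PCNA, -0.0345 to 0.45 for CCL25, -0.17 to 0.14 for CD86, -0.27 to 0.0212 for IFNAR1, -0.18 to 0.31 for IFNAR2, -0.61 to 0.0302 for TCF4 and -1.20 to 0.11 for UNC93B1.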
